A study of Mus musculus with 6 samples.

Results

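The hormone relay of the mammary gland was examined here in 10 genes, those of the estrogen and progesterone receptors, their partners and targets in hormone-sensing cells, and the amphiregulin and RANK signals that these cells exchange with their neighbours. The genes were Esr1, Pgr, Gata3, Cited1, Tbx3, Greb1, Areg, Tnfsf11, Tnfrsf11a and Tnfrsf11b, chosen by name from the 21950 genes of the expression table, and every one of the 10 has a row. RNA of mammary glands from MMTV-FOXC1 transgenic mice was compared with that of wildtype mice, both of the FVB/NJ strain, at lactation day 2 and at postnatal week 11, with 3 labelled samples of each genotype. The transgene is a Myc-tagged cDNA of human FOXC1, a forkhead transcription factor, under the long terminal repeat of mouse mammary tumor virus. That promoter is active in luminal epithelial cells and not in myoepithelial cells, is itself responsive to steroid hormones, and gave more transgene protein in lactation than in the virgin gland. The transgenic lines kept for study were those with the highest expression among the founders, and the labels do not say which line was sequenced. The labels call the source epithelial cells, whereas the RNA was extracted from tissue slides.

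In the mammary epithelium a minority of luminal cells carry the estrogen receptor (Esr1) and the progesterone receptor (Pgr), and most other epithelial cells do not. Estrogen acting on these sensing cells releases amphiregulin (Areg), an EGF receptor ligand that signals to the stroma during ductal growth. Progesterone acting on them induces RANKL (Tnfsf11), which binds RANK (Tnfrsf11a) on neighbouring luminal and basal cells and drives the proliferation that builds alveoli in pregnancy, while the soluble decoy osteoprotegerin (Tnfrsf11b) captures RANKL before it reaches RANK. In lactation, secretory alveolar cells come to fill the epithelium, and the hormone-sensing cells make up less of it.

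The 3 columns of a genotype did not behave as separate animals. Reads recovered from the RPKM values (reads scaled to exonic length and to depth) varied between columns with a chi-square of 1.02 per degree of freedom over 5835 genes in wildtype mice and 1.05 over 7490 genes in transgenic mice, about what sampling alone gives, and the depth of the columns was within 0.0995% and 0.0425%. The columns were therefore counted as 1 library a genotype, the comparison is of 1 library with 1 library, and it has no replicate check and no p-value. The 95% intervals given for it are Clopper-Pearson intervals that cover counting error only and compare the libraries, not the conditions. The wildtype library held 10482902 reads and the transgenic library 35321617, 3.37 times as many. Mouse Foxc1 was at 2.53, 1.66 and 2.90 RPKM in the wildtype columns and at 9.45, 9.56 and 8.21 RPKM in the transgenic columns, a ratio of 3.84 (3.12 to 4.76), or 1.59 (1.30 to 1.98) after the median-of-ratios scaling described next. That row counts the mouse gene and whatever reads of the human cDNA aligned to it.

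The scaling of the libraries bears on every value. Transcripts of 10 milk genes took up 42.7% of the reads in wildtype and 0.275% in transgenic mice, and the median gene kept (13118 genes whose mean reached 2 RPKM in wildtype or transgenic mice) was higher in transgenic mice by 1.06 on the scale of log2(RPKM + 1). Changes are therefore given on the deposited RPKM scale, as log2 of transgenic RPKM + 1 over wildtype RPKM + 1, and again as a relative change, after size factors from the median of the ratios between libraries (a shift of 2.41-fold), which puts the median of those genes at 0.009. A gene was counted as higher or lower when its change was over 2 on the log2 scale and it was among the genes kept. Scaling on reads outside the milk genes shifted the libraries by 1.74-fold and scaling on luminal markers by 3.39-fold. The trimmed mean of ratios shifted them by 2.44-fold, so it is nearly the same scaling as the median of ratios. Of the 10 genes, 6 were higher in transgenic mice on each of the 5 scalings (Pgr, Cited1, Tbx3, Areg, Tnfsf11 and Tnfrsf11b). Another 2 were lower on each (Esr1 and Tnfrsf11a), and 2 changed direction between them (Gata3 and Greb1). Areg and Tnfsf11 had 0 wildtype reads, so no scaling could have put them lower, and their agreement between scalings carries no information.

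Promoter sequence from RefSeq (GRCm38.p6), the 250 bases before the start of transcription, was at hand for 8 of the 10 genes in 12 windows, and not for Tbx3 or Tnfrsf11b. The windows of Areg, Tnfsf11, Cited1 and Tnfrsf11a are shown because the values of these genes, both ligands, a receptor and a coactivator, differed clearly between the genotypes, and the first window is shown for Cited1. The capitals mark matches to the motifs described after them.

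Areg, chr5:91139349-91139598, plus strand: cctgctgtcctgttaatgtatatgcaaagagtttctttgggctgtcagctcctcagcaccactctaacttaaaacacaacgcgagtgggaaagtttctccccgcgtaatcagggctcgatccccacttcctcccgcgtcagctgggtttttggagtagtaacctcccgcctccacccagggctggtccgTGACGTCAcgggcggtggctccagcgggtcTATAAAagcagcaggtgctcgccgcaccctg
Tnfsf11, chr14:78308044-78308293, minus strand: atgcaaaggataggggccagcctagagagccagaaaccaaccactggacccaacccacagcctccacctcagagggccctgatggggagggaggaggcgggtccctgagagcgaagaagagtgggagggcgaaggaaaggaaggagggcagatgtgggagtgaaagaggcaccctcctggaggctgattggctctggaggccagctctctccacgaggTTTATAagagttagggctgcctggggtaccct
Cited1, chrX:102252182-102252431, minus strand: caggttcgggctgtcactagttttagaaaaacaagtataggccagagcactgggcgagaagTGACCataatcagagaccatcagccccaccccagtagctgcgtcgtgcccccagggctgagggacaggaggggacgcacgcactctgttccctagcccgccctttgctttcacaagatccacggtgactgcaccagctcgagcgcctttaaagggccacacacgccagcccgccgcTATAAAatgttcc
Tnfrsf11a, chr1:105780473-105780722, plus strand: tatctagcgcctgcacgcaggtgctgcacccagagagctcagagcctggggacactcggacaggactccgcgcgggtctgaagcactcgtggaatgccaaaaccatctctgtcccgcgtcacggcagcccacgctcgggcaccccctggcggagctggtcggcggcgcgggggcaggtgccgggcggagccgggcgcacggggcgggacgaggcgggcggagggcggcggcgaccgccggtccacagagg

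In the Areg window the capitals mark TGACGTCA, the cAMP response element, whose first base lies 61 bases before the start, and TATAAA, a core promoter motif, at 31 bases before it. In the Tnfsf11 window they mark the same core motif read on the opposite strand at 32 bases before the start. In the Cited1 window they mark GGTCA, a single arm of the estrogen response element, on the opposite strand, at 189 bases before the start, and the core motif at 13 bases before it. The Tnfrsf11a window held none of the motifs searched. Matches were sought on both strands, and motifs may overlap one another. A full estrogen response element (GGTCA, any 3 bases, TGACC) was in 0 of the 8 genes and in 0.0639% of all 32851 windows, a progesterone response element (GNACA, any 3 bases, TGTNC) in 0 genes and 0.387% of windows, and the forkhead core GTAAACA in 0 genes and 3.17% of windows. The single arm GGTCA was in 3 of the genes (Gata3, Greb1 and Cited1) and in 35.2% of windows. The cAMP element, in Areg alone of the 8 and in 1.55% of windows, and TATAAA, in 4 of the 8 (Areg, Tnfsf11, Cited1 and Pgr) and in 12.4% of windows, were searched for after the windows had been seen. A gene was counted for a match in any of its windows, whereas the shares are of single windows, so the counts and shares are not on like units. Such matches describe letters in these windows and not binding.

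Of the 2 steroid receptors, Esr1 was at nearly the same RPKM in both genotypes and Pgr was higher in transgenic mice. Esr1 (ENSMUSG00000019768, chromosome 10, 4611593 to 5005614, plus strand), which encodes estrogen receptor alpha, was at 5.13, 5.17 and 5.34 RPKM in the wildtype columns and 4.63, 5.04 and 4.71 RPKM in the transgenic columns. The transgenic columns were all a little below the wildtype ones, with a ratio of 0.919 (0.846 to 0.999, from 747 and 2313 reads) and a change of -0.10. Against the median gene Esr1 was lower, with a relative change of -1.15 (-1.26 to -1.05), and it stayed below 0 on the 5 scalings tried, from -0.10 to -1.56. In bulk tissue, fewer cells of a type and less RNA per cell cannot be told apart.

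Pgr (ENSMUSG00000031870, chromosome 9, 8899833 to 8968611, plus strand), which encodes the progesterone receptor and is itself induced by estrogen, was at 0.368, 0.569 and 0.369 RPKM in the wildtype columns and 2.14, 1.81 and 2.06 RPKM in the transgenic columns. The genotypes did not overlap, and the ratio was 4.60 (3.32 to 6.53) from 39 wildtype and 604 transgenic reads. Its change of 1.06 (0.90 to 1.21) with a pseudocount of 1 was close to that of the median gene, at percentile 50.1 of all genes kept, and its relative change was 0.45 (0.24 to 0.64). At so low a level the change depends on the pseudocount, and it was 1.42 with a pseudocount of 0.5 and 1.97 with one of 0.1, while the ratio after median-of-ratios scaling, which has no pseudocount, was 1.91 (1.38 to 2.71). With a transgenic mean of 2.00 RPKM, Pgr was only just inside the level filter. On luminal markers its change was 0.21, the smallest on the 5 scalings. Per length, Esr1 stood at 12.0 times the level of Pgr in wildtype mice (8.68 to 17.0) and at 2.40 times in transgenic mice (2.19 to 2.62), a comparison within a library that no scaling touches.

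**Figure D1:**
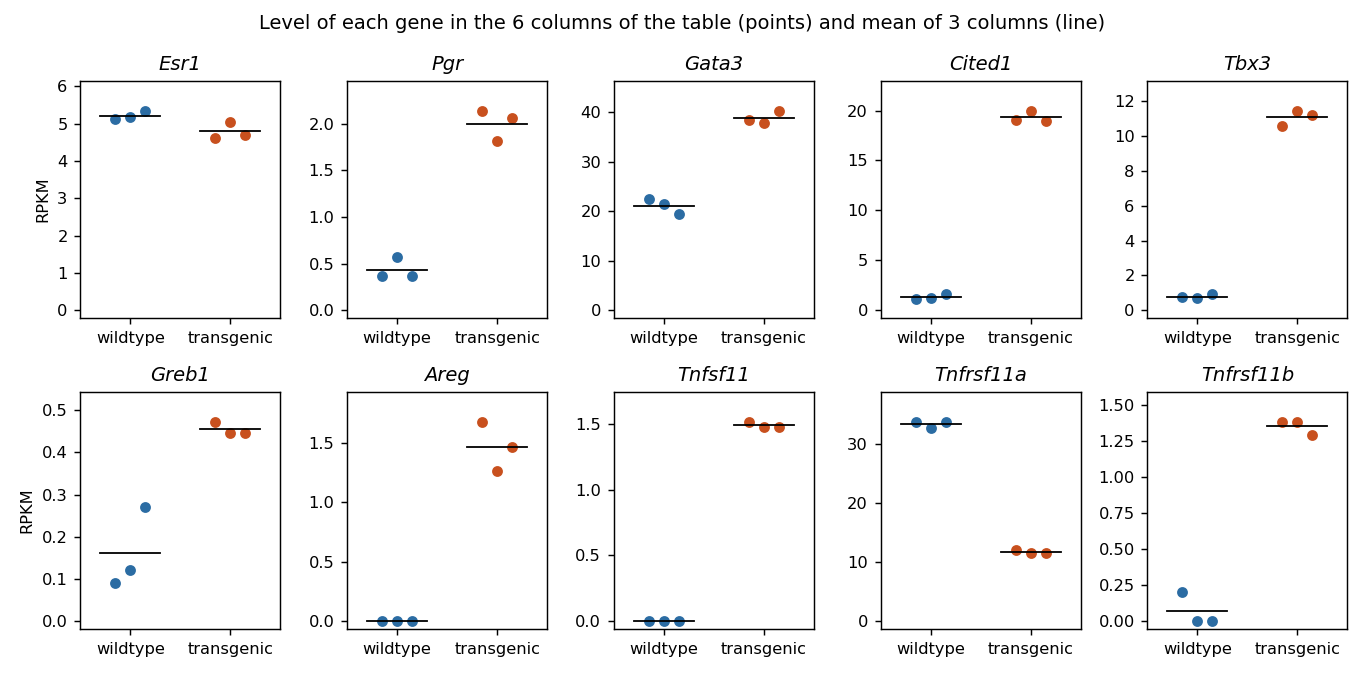
RPKM of the 10 genes in a panel each, with the 3 wildtype columns (blue) and the 3 transgenic columns (orange) as points, their mean as a line, and an axis from 0 that differs between panels. Tnfrsf11a was the highest of the 10 in wildtype mice (33.4 RPKM) and Gata3 in transgenic mice (38.8 RPKM), and the columns of a genotype lie close together because they behaved as 1 library.

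Among the transcription factors of the hormone-sensing lineage, Cited1 and Tbx3 were far higher in transgenic mice, while the direction for Gata3 turned with the scaling. The 7 markers of hormone-sensing luminal cells described further on did not rise as a set against the median gene. Their relative median was -0.37, with 3 above 0 and 4 below. Cited1 (ENSMUSG00000051159, chromosome X, 102247381 to 102252181, minus strand), a coactivator of the estrogen receptor needed for the ductal response to estrogen, was at 1.08, 1.26 and 1.63 RPKM in the wildtype columns and 19.1, 20.0 and 18.9 RPKM in the transgenic columns. The highest wildtype column was far below the lowest transgenic one, and the ratio was 14.6 (9.58 to 23.4) from 22 and 1081 reads. The change was 3.13 (2.75 to 3.48) and the relative change 2.14 (1.70 to 2.56), at percentiles 97.0 and 96.7 of all genes kept.

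Tbx3 (ENSMUSG00000018604, chromosome 5, 119670669 to 119684724, plus strand), a T-box factor of mammary placode formation and of estrogen-responsive luminal cells, was at 0.735, 0.691 and 0.908 RPKM in the wildtype columns and 10.6, 11.5 and 11.2 RPKM in the transgenic columns. Its ratio of 14.3 (10.9 to 19.0), from 54 and 2595 reads, was close to that of Cited1, and its change was 2.77 (2.58 to 2.94). The relative change of 1.88 (1.66 to 2.10) lay just under the threshold of 2, at percentile 95.3. The antisense gene Tbx3os1 covers 1.74% of its exonic bases, and reads from it cannot be told apart where the counting did not use strand.

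Gata3 (ENSMUSG00000015619, chromosome 2, 9857078 to 9890034, minus strand), which maintains luminal cell fate, was at 22.4, 21.4 and 19.5 RPKM in the wildtype columns and 38.4, 37.7 and 40.2 RPKM in the transgenic columns. The ratio was 1.84 (1.71 to 1.98) and the change 0.85 (0.75 to 0.95), below the median gene. The relative change was -0.38 (-0.48 to -0.28), and scaling on reads outside the milk genes put Gata3 at 0.08 and scaling on luminal markers at -0.85, so that its direction depends on the scaling. Per length it stood at 4.05 times Esr1 in wildtype mice (3.67 to 4.47) and at 8.09 times in transgenic mice (7.70 to 8.497). Other genes, one of them on the opposite strand, share 5.83% of its exonic bases, and T cells also express Gata3.

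Greb1 (ENSMUSG00000036523, chromosome 12, 16670615 to 16800886, minus strand), a cofactor of the estrogen receptor and one of its most direct targets in human breast cancer cells, was low in both genotypes. It was at 0.0903, 0.120 and 0.271 RPKM in the wildtype columns and 0.473, 0.447 and 0.446 RPKM in the transgenic columns. The ratio was 2.84 (1.69 to 5.09) from 16 and 153 reads, and the relative change of 0.05 (-0.13 to 0.19) was not distinguishable from 0 at this depth, with a value of -0.05 on luminal markers. Greb1 was below the level filter, and Gm48140 on the opposite strand overlaps 7.68% of its exonic sequence.

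**Figure D2:**
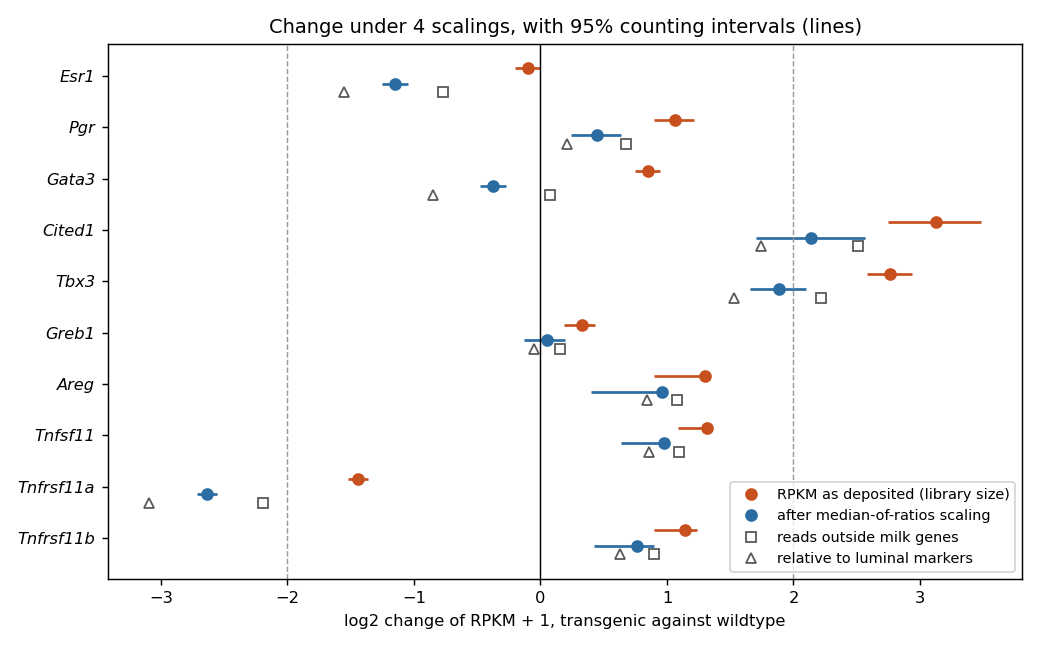
Change of each of the 10 genes, transgenic against wildtype, in log2(RPKM + 1) under the deposited scaling (orange), the median of ratios (blue), reads outside the milk genes (squares) and luminal markers (triangles), with 95% counting intervals on the filled points and the size threshold of 2 as dashed lines. Cited1 and Tbx3 lie above 0 and Tnfrsf11a and Esr1 below 0 on each scaling shown, whereas Gata3 runs from 0.85 to -0.85 and Greb1 from 0.33 to -0.05.

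Neither paracrine ligand had a read in the wildtype library, and both had reads in every transgenic column. Areg (ENSMUSG00000029378, chromosome 5, 91139599 to 91148432, plus strand), the ligand that estrogen induces, was at 0 RPKM in all 3 wildtype columns and at 1.68, 1.26 and 1.47 RPKM in the transgenic columns, from 24, 18 and 21 reads. At the wildtype depth a count of 0 allows up to 3 reads, or 0.236 RPKM, and set against that limit the transgenic mean was at least 6.23-fold higher, and at least 2.59-fold higher after median-of-ratios scaling. The 95% interval of the ratio, which also takes in the counting error of the 63 transgenic reads, reached down to 4.92, and to 2.04 after scaling.

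Tnfsf11 (ENSMUSG00000022015, chromosome 14, 78277445 to 78308043, minus strand), the RANKL gene and the main mediator of progesterone-driven proliferation, was likewise at 0 RPKM in all 3 wildtype columns. The transgenic columns were at 1.52, 1.48 and 1.48 RPKM, from 40, 39 and 39 reads. Set against a wildtype limit of 0.128 RPKM, the transgenic mean was at least 11.7-fold higher, and at least 4.85-fold higher after median-of-ratios scaling. The 95% interval of the ratio reached down to 9.35, and to 3.88 after scaling. Per length the ligands were at one level in transgenic mice within counting error, Areg at 0.983 times Tnfsf11 (0.712 to 1.35). Both were below the level filter of 2 RPKM. RANKL is also made by T cells and stromal cells, whose markers are described further on.

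The RANK receptor was lower in transgenic mice, where its ligand was higher. Tnfrsf11a (ENSMUSG00000026321, chromosome 1, 105780718 to 105847981, plus strand), which encodes RANK, was at 33.7, 32.7 and 33.8 RPKM in the wildtype columns and 12.0, 11.5 and 11.5 RPKM in the transgenic columns. Every transgenic column was far below every wildtype one, with a ratio of 0.349 (0.329 to 0.370) from 2094 and 2461 reads. It was the best expressed of the 10 genes in wildtype mice. Among the levels of all 21950 genes, kept or not, it was at percentile 97.5 in wildtype and 74.5 in transgenic mice. The change was -1.44 (-1.52 to -1.36), at percentile 2.24, and the relative change was -2.63 (-2.71 to -2.56), at percentile 1.89. On the other scalings it ran from -2.20 on reads outside the milk genes to -3.09 on luminal markers.

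Tnfrsf11b (ENSMUSG00000063727, chromosome 15, 54250619 to 54278484, minus strand), the decoy receptor osteoprotegerin, was at 0.203, 0 and 0 RPKM in the wildtype columns and 1.39, 1.39 and 1.30 RPKM in the transgenic columns. The wildtype value rests on 2 reads, against 135 transgenic reads, which gives a ratio of 20.0 with an interval from 5.44 to 167. After median-of-ratios scaling the ratio was 8.32 (2.26 to 69.4), and the relative change was 0.76 (0.42 to 0.90). Tnfrsf11b was below the level filter. The decoy and the ligand were at a like level in transgenic mice, with Tnfsf11 at 1.10 times Tnfrsf11b per length (0.853 to 1.42).

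Within a library, per length, RANK stood at 7.79 times RANKL in transgenic mice (6.48 to 9.45). In wildtype mice, where RANKL had 0 reads, the lower limit of that ratio was 212. RANK stood at 493 times its decoy in wildtype mice (136 to 4073) and at 8.58 times in transgenic mice (7.22 to 10.3). In the order of levels in wildtype mice, Tnfrsf11a was followed by Gata3, Esr1, Cited1, Tbx3, Pgr, Greb1 and Tnfrsf11b, and the intervals of Cited1 over Tbx3 (0.989 to 2.85) and of Greb1 over Tnfrsf11b (0.557 to 21.2) reached 1. In transgenic mice Gata3 was followed by Cited1, Tnfrsf11a, Tbx3, Esr1, Pgr, Tnfsf11, Areg, Tnfrsf11b and Greb1. There Tnfrsf11a was at 1.05 times Tbx3 (0.993 to 1.11), and Tnfsf11, Areg and Tnfrsf11b had overlapping columns.

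Of the 10 genes, 6 were kept by the level filter (Esr1, Pgr, Gata3, Cited1, Tbx3 and Tnfrsf11a) and 4 were not (Greb1, Areg, Tnfsf11 and Tnfrsf11b). On the deposited scale 2 of the 6, Cited1 and Tbx3, were past the threshold upwards, against 16.1% of all genes kept. None was past it downwards, against 1.23%. Cited1 and Tbx3, at 1.33 and 0.778 RPKM in wildtype mice, were kept through their transgenic level alone, as was Pgr at 0.435 RPKM. On the deposited scale such a gene can only be higher, so the filter fixed the direction of these genes. The genes kept that give the shares include genes kept in the same way. After median-of-ratios scaling 1 was higher (Cited1), against 4.01% of genes, and 1 was lower (Tnfrsf11a), against 3.72%. The median change of the 6 was 0.96 and their median relative change 0.04, near those of all genes kept. The columns of the genotypes did not overlap for any of the 10, but neither did they for 93.3% of the genes kept.

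**Figure D3:**
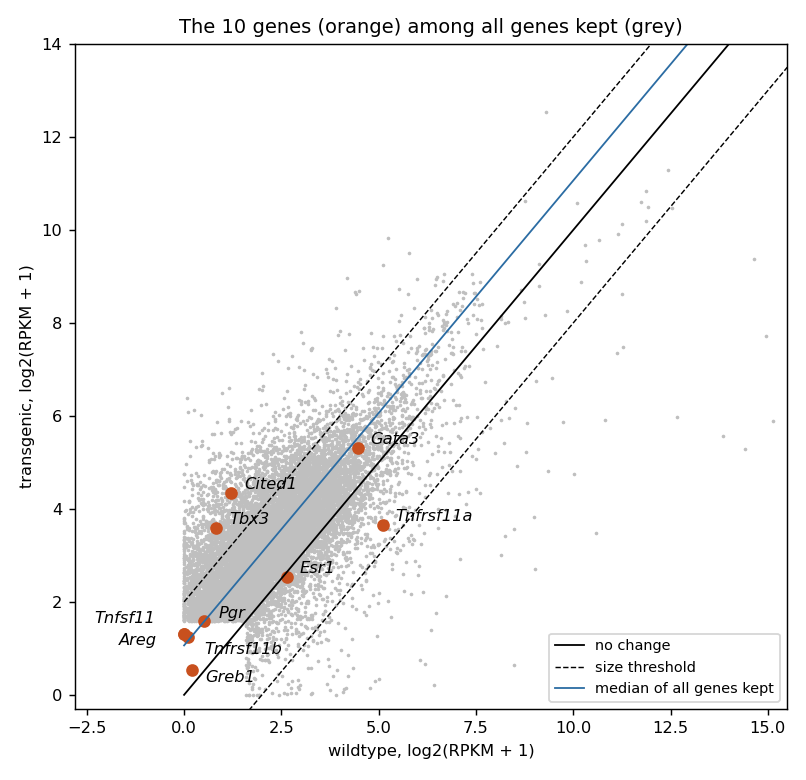
Level in transgenic against level in wildtype mice, both as log2(RPKM + 1), for the 13118 genes kept (grey) and the 10 genes (orange), with lines for no change, for the size threshold of 2 and for the median gene. Cited1 and Tbx3 lie beyond the upper threshold line, Pgr on the median line, and Esr1 and Tnfrsf11a below it.

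The counts of the lists that follow are to be read against the shares of all genes kept. Those were 16.1% higher and 1.23% lower on the deposited scale, and 4.01% and 3.72% after median-of-ratios scaling. The partners of the receptors split by gene. Of 19 receptor partners and coregulators, 18 were kept, of which 2 were higher and 0 lower, and the median was 1.20 (relative 0.14). Foxa1, the forkhead pioneer factor that opens chromatin for the estrogen receptor, had 4 reads in wildtype and 1688 in transgenic mice (0.120 and 14.99 RPKM), a change of 3.84 and a relative change of 3.17. Of 15 estrogen target genes 11 were kept, 4 were higher and 0 lower, with a median of 1.41 and a relative median of 0.18. The 4 were Myc, the growth regulator, at 2.86 and 21.2 RPKM (change 2.52, relative 1.43), the chemokine gene Cxcl12 at 12.3 and 70.1 RPKM (2.41, relative 1.20), Igfbp4, which encodes a binding protein of insulin-like growth factors, at 13.8 and 73.7 RPKM (2.34, relative 1.12), and the survival gene Bcl2 at 2.33 and 14.97 RPKM (2.26, relative 1.20). None of the 4 passed the threshold after median-of-ratios scaling, where 0 were higher and 1 was lower. That gene, named after its value was seen, was Xbp1, a regulator of secretory capacity, at 153 and 62.1 RPKM with a relative change of -2.54. Ccnd1, the cyclin D1 gene, was at 22.1 and 60.5 RPKM with a relative change of 0.18, and LTO1 overlaps 23.4% of its exonic sequence.

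Of 12 progesterone paracrine genes 10 were kept, 5 were higher and 0 lower, with a median of 1.75 and a relative median of 0.76, and after median-of-ratios scaling 1 was higher and 1 lower. The higher one was Axin2, a target of Wnt signalling, with 9 reads in wildtype and 2055 in transgenic mice (0.156 and 10.6 RPKM, relative change 2.65). Cxcr4, the receptor of Cxcl12, was at 1.48 and 16.6 RPKM (change 2.83, relative 1.83). Rspo1, the R-spondin that acts with Wnt4 on mammary stem cells, had 0 wildtype and 233 transgenic reads. Wnt4, the Wnt ligand that progesterone induces in sensing cells, was at 5.07 and 8.98 RPKM, with a change of 0.72 and a relative change of -0.39. Calca, the calcitonin gene that progesterone induces in pregnancy, had 0 and 10 reads. The lower one, named after its value was seen, was Lgr4, a receptor of R-spondins and a further receptor of RANKL, at 35.2 and 8.16 RPKM. Lgr4 was lower in transgenic mice, as Tnfrsf11a was, with a change of -1.98, just short of the threshold, and a relative change of -3.15.

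Of the 11 genes of the amphiregulin relay to the stroma 10 were kept, 3 were higher and 0 lower, with a median of 1.71 and a relative median of 0.67. Egfr, the receptor of amphiregulin, was at 3.45 and 21.4 RPKM (change 2.33, relative 1.22). Adam17, the protease that frees amphiregulin from the membrane, was at 7.11 and 16.4 RPKM (1.10, relative -0.06). The fibroblast growth factor receptor Fgfr2, which acts in the epithelium, was at 0.788 and 23.6 RPKM (3.78, relative 2.87), and Fgfr1 was at 3.92 and 42.3 RPKM (3.14, relative 1.99). Of the 3 past the threshold upwards, Fgfr2 was the 1 gene that also passed it after median-of-ratios scaling.

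All 26 genes of signalling downstream of RANK were kept, with 8 higher and 0 lower, a median of 1.10 and a relative median of 0.00. Of all genes kept, 16.1% were higher and 1.23% lower on the deposited scale. After median-of-ratios scaling 1 of the 26 was higher and 1 lower (Lgr4, which is also in the progesterone list). On that scaling 4.01% of all genes kept were higher and 3.72% lower, so these counts are near the shares of all genes. The higher one was Nfatc1, the transcription factor that RANK induces in osteoclasts, at 1.46 and 19.8 RPKM (change 3.08, relative 2.07). The partners Nfkb2 and Relb of the alternative NF-κB pathway were at 2.76 and 31.1 RPKM (3.10, relative 2.00) and at 1.38 and 17.7 RPKM (2.98, relative 1.98), and other genes share 18.1% of the exonic bases of Nfkb2. Traf6, the adaptor that binds RANK, was at 5.92 and 7.30 RPKM (0.26, relative -0.84). Id2, an effector of RANK in lobuloalveolar growth, was at 16.6 and 26.9 RPKM (0.66, relative -0.55).

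**Figure D4:**
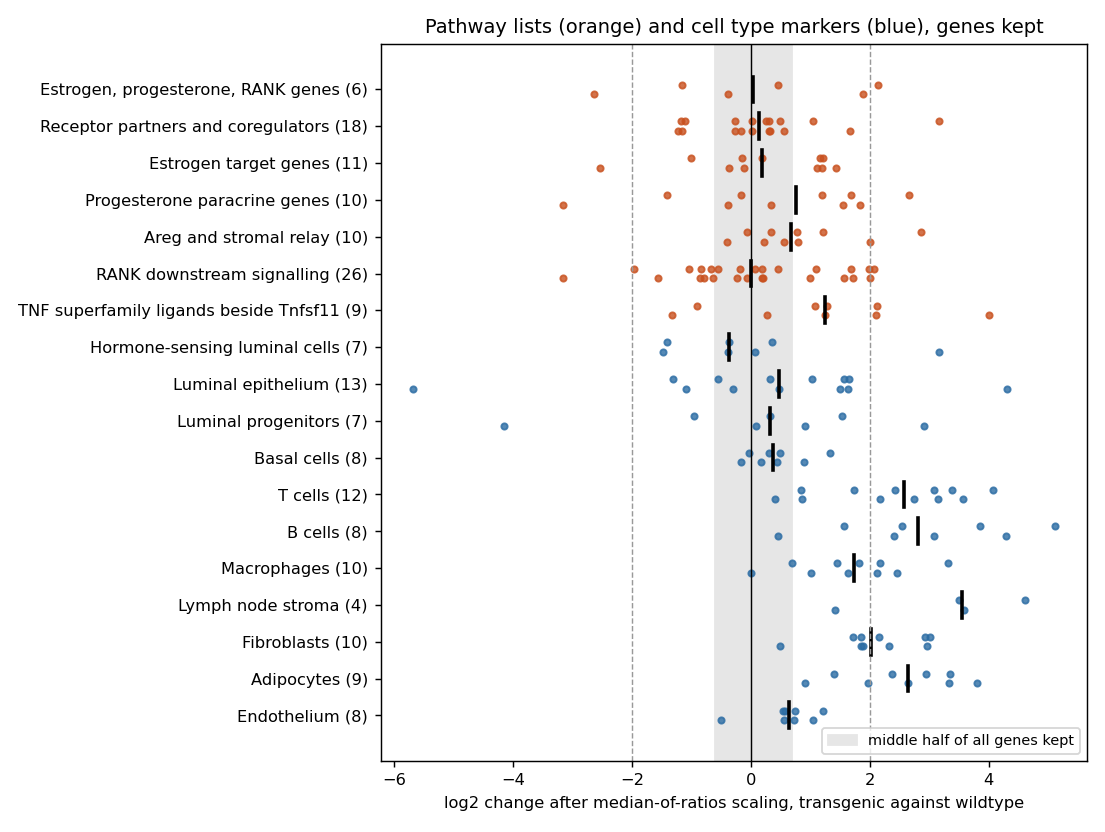
Relative change (log2 of RPKM + 1 after median-of-ratios scaling, transgenic against wildtype) of the genes kept in each pathway list (orange) and cell type marker list (blue), with the number of genes in parentheses, the median as a black bar, the size threshold of 2 as dashed lines and the middle of all genes kept, -0.61 to 0.69, as a grey band. The medians of the estrogen, receptor partner and RANK downstream lists lie inside the band, and those of T cells, B cells, lymph node stroma, fibroblasts and adipocytes lie beyond 2.

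Markers of cell types differed between the genotypes by amounts that varied with the list and the scaling. Here too, 16.1% of all genes kept were higher and 1.23% lower on the deposited scale. After median-of-ratios scaling those shares were 4.01% and 3.72%. Of 7 markers of hormone-sensing luminal cells 1 was higher (Foxa1) and 0 lower, their summed level was 44.1 to 45.2 RPKM in the wildtype columns and 86.6 to 90.4 RPKM in the transgenic columns, and their relative median was -0.37. Prlr, the prolactin receptor, was at 14.4 and 12.1 RPKM, with a change of -0.23 and a relative change of -1.41. Of 13 luminal markers 6 were higher and 1 lower, with sums of 283 to 297 and 594 to 595 RPKM, and after median-of-ratios scaling 1 was past the threshold each way. Their relative median was 0.48. Of 7 luminal progenitor markers kept 2 were higher and 1 lower, and 1 and 1 after that scaling. The lower one was Elf5, an alveolar factor that acts downstream of RANK and prolactin, at 156 and 19.6 RPKM with a relative change of -4.16. The sum of that list was 174 to 176 RPKM and 95.1 to 98.2 RPKM, with a relative median of 0.31, and without Elf5 the sum of the other 7 genes was lower in wildtype mice, at 19.2 against 77.1 RPKM. All 10 milk genes were lower in transgenic mice on both scales, with a relative median of -8.21. Of 8 basal markers 1 was higher, with a relative median of 0.37, and of 8 endothelial markers 2 were, with a relative median of 0.65, and after that scaling 0 of either list were past the threshold.

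Of 12 T cell markers 9 were higher, and 8 after median-of-ratios scaling, with sums of 13.1 to 14.6 RPKM in wildtype and 252 to 261 RPKM in transgenic mice, and Icos alone was at 0 in wildtype mice. The T cell receptor gene Cd3e was at 1.20 and 72.5 RPKM. Of 8 B cell markers 7 were higher (sums of 7.01 to 8.78 and 193 to 197 RPKM), and of 10 macrophage markers 8 were (26.8 to 35.4 and 381 to 383 RPKM). Of 4 lymph node stroma markers kept 3 were higher (0.329 to 1.58 and 98.5 to 102 RPKM). The study's methods state that nodes were removed, before digestion, from glands taken for RNA analysis and progenitor assays. They do not state it for the tissue slides that gave the sequenced RNA. Of 10 fibroblast markers 9 were higher (82.1 to 83.5 and 1315 to 1321 RPKM), as were 9 of 9 adipocyte markers (109.5 to 118 and 1939 to 1961 RPKM). After median-of-ratios scaling the counts were 6 of 8 for B cells, 4 of 10 for macrophages, 3 of 4 for lymph node stroma, 5 of 10 for fibroblasts and 6 of 9 for adipocytes. The part of these cells in the values of any of the 10 genes, Cited1 and Tbx3 included, and of the stromal relay was not tested.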

How the data were processed

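RNA of lactating mammary tissue was sequenced as single reads of 50 bases after depletion of ribosomal RNA. The deposited values are RPKM, which the authors made with TopHat2 (2.0.7) alignments to GRCm38, scaled to library size with no composition factor. The deposited log2 fold change and fold change columns hold the authors' own comparison and were not used. Reads and depths were recovered from the steps of the RPKM values (within 1e-05 of whole reads). The annotated exonic length gave whole reads for 8699 of 21950 genes, including 8 of the 10 described, and another whole length was used for the others with reads. At the lengths used, reads sum to 99.74% to 99.89% of the depth.

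No test was made, since the 3 columns of a genotype were counted as 1 library. Columns were averaged, with a pseudocount of 1 RPKM, a level filter of 2 RPKM and a size threshold of 2 on the log2 scale. In each rescaling the shift was shared equally by the genotypes. All 10 genes are named. From each pathway list the text names up to 3 genes past the threshold with the largest relative change and up to 2 direct partners of the genes described, and from each marker list up to 2. A gene that this rule would name is not reported here. Genes and lists were chosen with earlier results of these data known. Alternatives were other scalings, pseudocounts, filters and thresholds, and leaving out each column. Python (3.11.15), NumPy (2.4.6), pandas (2.3.3) and SciPy (1.17.1) were used, and the steps were tested on simulated data. Coordinates and shared exonic bases are from GENCODE on GRCm38.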

Additional observations from a re-analysis of the deposited data

How the results depend on the processing

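The count of the 10 genes past the threshold was 2 upwards and 0 downwards on the deposited scale. Upwards it was 1 with the median of ratios, 1 with the trimmed mean of ratios and 0 with luminal markers, and downwards it was 1 with each of these and with reads outside the milk genes. A threshold of 1 gave 3 upwards and 1 downwards on the deposited scale, where the median gene kept, at 1.06, was itself past 1. The median of ratios with a pseudocount of 0.1, a pair of settings chosen after seeing the data, gave 2 upwards and 1 downwards. Shares of all genes kept were taken only for the deposited scale and the median of ratios at the main settings. Leaving out each column in turn gave 2 to 2 upwards and 0 to 0 downwards. Every gene of the 10 but Gata3 and Greb1 kept its direction under every setting tried. For Areg and Tnfsf11, with 0 wildtype reads, that was fixed beforehand. No paired analysis was possible because the comparison comes from no test, the 3 columns of each genotype counting as 1 library. The pseudocount set the size for the low genes, with changes of 3.97 for Areg, 3.99 for Tnfsf11, 3.12 for Tnfrsf11b, 1.97 for Pgr and 1.09 for Greb1 at a pseudocount of 0.1. The wildtype depth limits Areg, Tnfsf11, Tnfrsf11b and Greb1, each at 16 reads or fewer there. Variation between animals could not be estimated.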

Other observations

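Of 16 ligands of the TNF superfamily beside Tnfsf11, 9 were kept, 3 were higher in transgenic mice and 0 lower, on the deposited scale and after median-of-ratios scaling alike, with a relative median of 1.25. They were Ltb, which encodes lymphotoxin beta (0.635 and 47.7 RPKM, relative change 3.999), Lta, which encodes lymphotoxin alpha (0.0690 and 5.94 RPKM, 2.12), and Tnf (0.175 and 6.89 RPKM, 2.10). Of all genes kept, 16.1% were higher on the deposited scale and 4.01% after median-of-ratios scaling. Ltb, Lta and Tnf passed the level filter through transgenic mice alone, as did Tnfsf8, Tnfsf13b and Cd40lg. On the deposited scale such genes can only be higher, so the filter itself lifts the count and the median. In the wildtype library 7 of the 16 had 0 reads, and 0 of the 16 had none in the transgenic library. The transgenic library was 3.37 times as deep, and the share of all genes at 0 reads was not set beside these counts. For Tnfsf4 and Cd70, with 8 transgenic reads each, the counting interval of the log2 ratio on the deposited scale began at -0.98. Their wildtype zeros therefore do not show a difference. For Tnfsf9, Tnfsf13b, Tnfsf14, Cd40lg and Fasl the interval began at 1.92 to 2.94. For Tnfsf11, with 118 transgenic reads, it began at 3.22.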
